A study of Triticum aestivum with 23 samples.

Results

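The comparison described here sets the moderate dwarf *tabri1-a.2bd* against the mild triple mutant *tabri1-a.3bd*, with 4 RNA-seq libraries of each out of the 23 libraries of the study. RNA was taken from the above-ground tissue of hexaploid wheat (*Triticum aestivum*, cv. Cadenza) seedlings at the second-leaf stage, grown under constant light and temperature, with several seedlings pooled in each replicate. Both triple mutants carry the *tabri1-b* and *tabri1-d* alleles, which introduce premature stop codons into *TaBRI1-B* and *TaBRI1-D*, and differ in their *TaBRI1-A* allele. *tabri1-a.2* carries an amino acid substitution in the last leucine-rich repeat of the receptor, and *tabri1-a.3* carries a substitution in its kinase domain. Both alleles came from EMS treatment of *tabri1-bd* seed, and each line was backcrossed once to *tabri1-bd*. Each genotype is therefore 1 mutagenised line, and the *TaBRI1-A* allele cannot be told apart from other sites at which these lines differ. Other genotypes are used below only for reference. They are the double mutant *tabri1-bd*, the null segregant *TaBRI1-NS* and the cultivar Cadenza (4 libraries each), and the severe dwarf *tabri1-a.1bd* (3 libraries), which carries premature stop codons in all TaBRI1 homoeologues. Of the 266760 genes in the expression table, the 73727 with a TPM (transcript abundance per gene length, scaled to the library total) of at least 0.5 in at least 3 of the 8 libraries were tested.

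BRI1 is a leucine-rich repeat receptor kinase at the cell surface that binds brassinosteroids (BRs), steroid hormones that promote cell elongation. In Arabidopsis, ligand binding displaces the inhibitor BKI1 from BRI1 and brings in the co-receptor BAK1. The signal then runs through the kinases BSK1 and CDG1 and the phosphatase BSU1 to the kinase BIN2, which represses the BZR transcription factors. BRs are made from campesterol by DET2 and a set of cytochrome P450 enzymes (DWF4, CPD, D2/D11 and BR6ox1), and active signalling represses several of these genes, so that plants with an impaired receptor often accumulate their transcripts and BRs.

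Depth, as reads recovered from the TPM values, was 25705264 to 35960234 in the *tabri1-a.2bd* libraries and 27726711 to 30427475 in those of *tabri1-a.3bd*. In bulk tissue, fewer cells of a type and less RNA per cell cannot be told apart. Genes on the study's chloroplast thylakoid membrane list, which mark green tissue, were expressed in both mutants, with TraesCS6B03G1104600 the highest at means of 2166 TPM (*tabri1-a.2bd*) and 2429 TPM (*tabri1-a.3bd*). Across the genes tested, Pearson's r of log2(TPM + 0.5) was 0.94 to 0.954 between libraries of the same genotype and 0.921 to 0.939 between genotypes. On the first principal component of the 500 most variable genes, which held 67.5% of their variance, the scores were 28.5 to 30.4 for *tabri1-a.2bd* and -31.8 to -25.4 for *tabri1-a.3bd*. Outside the chromosome region that the next paragraph sets apart, the share of the first component was lower, at 53.8%. Among the reference genotypes, *tabri1-a.1bd* replicate 1 stood apart from the other libraries of its group in several values given below.

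Between the genotypes, 2222 genes were differentially expressed (DEGs; limma, Benjamini-Hochberg adjusted p of 0.05 or less over all genes tested), which is 3.01% of the genes tested. A total of 845 were higher and 1377 lower in *tabri1-a.2bd*, 1.15% and 1.87% of the genes tested, and 1855 of the DEGs were high-confidence gene models. Over all genes the median log2 change was -0.01. A region of 6B, set apart on the basis of earlier results of these data, held 109 of the DEGs and is described separately. Outside it, 844 genes were higher and 1269 lower (1.15% and 1.73% of the genes tested there, 2.87% together), with median log2 changes of 1.04 and -0.84. The libraries of the genotypes did not overlap for 2109 of these 2113 DEGs, compared with 10.7% of all genes tested. Calling selects for such genes, so this count is a description. The call rate outside the 6B region was between 2.05% (6A) and 3.77% (2B) on the 21 chromosomes. Of the DEGs, 1041 changed by more than 2-fold. Leaving out 1 library at a time gave 1433, 1297, 1730 and 1272 DEGs without *tabri1-a.2bd* replicates 1 to 4 and 1484, 1411, 1493 and 1258 DEGs without those of *tabri1-a.3bd*.

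**Figure D1:**
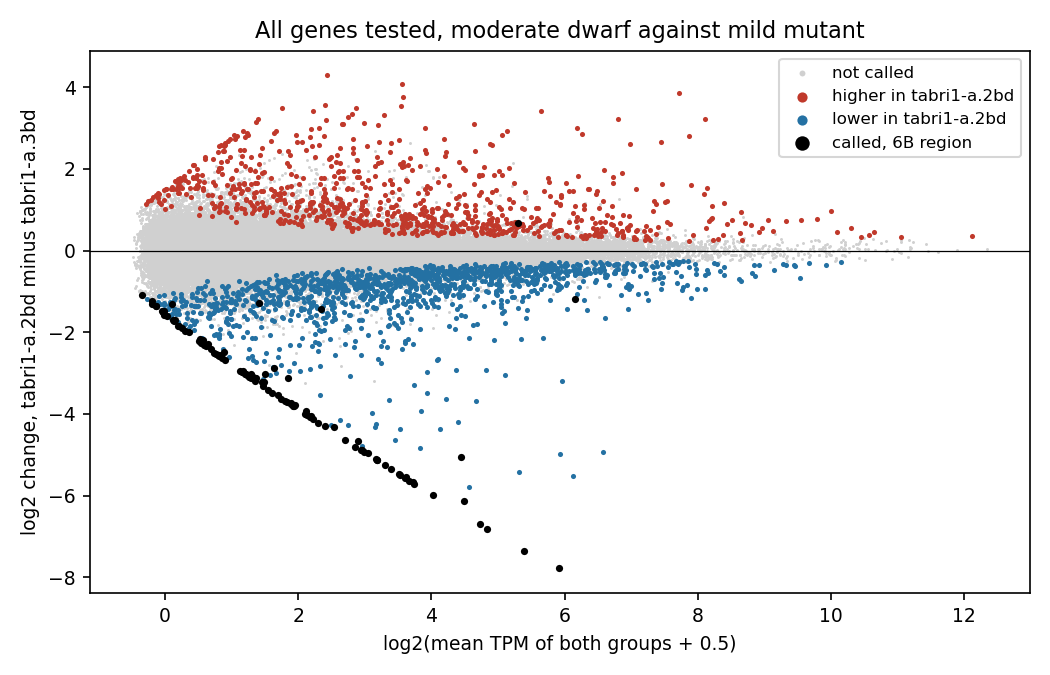
Log2 change between *tabri1-a.2bd* and *tabri1-a.3bd* (y axis) against log2 of the mean TPM of both genotypes plus 0.5 (x axis), with 1 point per gene tested. The 845 DEGs above 0 and 1377 below 0 are coloured by direction, and the 109 called genes of the 6B region are black; 108 of these lie below 0, most along the lower edge where *tabri1-a.2bd* is near 0 TPM.

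Transcripts of the receptor genes did not distinguish the mutants. *TaBRI1-A* (TraesCS3A03G0629800), the homoeologue whose allele differs, was at 5.95, 5.8, 6.57 and 6.49 TPM in *tabri1-a.2bd* and at 6.74, 6.15, 7.61 and 7.11 TPM in *tabri1-a.3bd*. The genotypes overlapped, and the difference was not called (log2 change -0.14, 95% interval -0.39 to 0.1, limma adjusted p = 0.58). *TaBRI1-B* (TraesCS3B03G0712100) was at 5.64, 7.18, 5.09 and 6.94 TPM in *tabri1-a.2bd* and at 6.02, 5.64, 8.53 and 6.87 TPM in *tabri1-a.3bd*. *TaBRI1-D* (TraesCS3D03G0579600) was at 9.63, 10.7, 9.17 and 9.24 TPM in *tabri1-a.2bd* and at 9.16, 9.71, 11.2 and 10.3 TPM in *tabri1-a.3bd*, the highest mean of the homoeologues in each mutant. Both overlapped between the mutants. *TaBRI1-A* made up 28.2% ± 2.88 of the summed TPM of the homoeologues in *tabri1-a.2bd*, compared with 29.1% ± 1.23 for *tabri1-a.3bd* (SD, n = 4 each) (exact two-sided permutation test, p = 0.63, where the smallest p that 4 against 4 libraries allow is 0.0286). Because reads of every allele enter the TPM, the alleles themselves could not be checked in these values.

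Of the 76 BR pathway genes listed by the study, 67 passed the filter. The 6 genes called belong to 2 families. In the fit of the 8 libraries, 5 copies of *TaBR6ox1* were higher in *tabri1-a.2bd* and *TaBAK1-A2* was lower, against 1.15% and 1.87% of all genes tested. The median log2 change over the tested BR genes was 0.02. BR6ox1 is the cytochrome P450 that catalyses the late C-6 oxidation in BR synthesis, and wheat has 9 listed copies on chromosomes 2A, 2B and 2D. The mean of each of the 9 copies was higher in *tabri1-a.2bd* than in *tabri1-a.3bd*, although reads shared by these close paralogues may have been split among them.

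*TaBR6ox1-B2* (TraesCS2B03G0038200) had the highest TPM of the copies in both mutants, at 9.96, 10.7, 11.4 and 13.9 TPM in *tabri1-a.2bd* and at 3.35, 3.63, 4.5 and 2.92 TPM in *tabri1-a.3bd*. The genotypes did not overlap (log2 change 1.55 ± 0.15 SE, limma adjusted p = 0.00075). *TaBR6ox1-D3* (TraesCS2D03G0027700) showed the largest log2 change among the copies, at 3.57, 5.55, 5.55 and 6.69 TPM against 0.756, 1.15, 0.842 and 0.488 TPM (2.15 ± 0.22 SE, adjusted p = 0.0011). All *tabri1-a.2bd* libraries again lay above all *tabri1-a.3bd* libraries. *TaBR6ox1-D1* (TraesCS2D03G0028100) was at 5.35, 5.91, 7.24 and 9.83 TPM against 1.47, 1.57, 2.87 and 1.83 TPM (1.64 ± 0.23 SE, adjusted p = 0.0059). *TaBR6ox1-A1* (TraesCS2A03G0029200) was at 4.07, 3.89, 4.96 and 6.46 TPM against 1.48, 1.76, 2.89 and 2.07 TPM (1.07 ± 0.21 SE, adjusted p = 0.03). *TaBR6ox1-D2* (TraesCS2D03G0027500) was at 4.49, 5.11, 5.89 and 6.64 TPM against 1.72, 1.87, 3.94 and 2.52 TPM (1.04 ± 0.23 SE, adjusted p = 0.045). Groups did not overlap for these copies either, but 3 copies (*TaBR6ox1-B2*, *TaBR6ox1-D1* and *TaBR6ox1-D3*) were called whichever library was left out, whereas *TaBR6ox1-A1* and *TaBR6ox1-D2* passed the threshold in only 1 of the 8 fits that left out a library, the fit without *tabri1-a.3bd* replicate 3.

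The remaining copies were not called. *TaBR6ox1-A2* (TraesCS2A03G0027900) was at 2.86 to 3.99 TPM in the *tabri1-a.2bd* libraries, above the 1.36 to 2.71 TPM of *tabri1-a.3bd* (adjusted p = 0.087). *TaBR6ox1-A3* (TraesCS2A03G0028800), at 0.417 to 0.864 TPM and 0.113 to 0.202 TPM (adjusted p = 0.15), passed the filter only through *tabri1-a.2bd*. *TaBR6ox1-B1* (TraesCS2B03G0038000) and *TaBR6ox1-B3* (TraesCS2B03G0038400) were below the filter, with means of 0.403 and 0.141 TPM in *tabri1-a.2bd*. The summed TPM of all copies was 31.1, 35.7, 39.5 and 49.3 in *tabri1-a.2bd*, compared with 10.3, 11.7, 18.1 and 12.1 for *tabri1-a.3bd*. The sums of *tabri1-bd*, the parent of both lines, were lower still at 7.38 to 8.82 TPM, and those of *TaBRI1-NS* and Cadenza were 3.81 to 6.86 TPM. In *tabri1-a.1bd* the sum was 6.7 TPM in replicate 1 and 145 and 157 TPM in the others. When all 23 libraries were put in 1 fit, none of the copies was called at an adjusted p of 0.05 or less (adjusted p = 0.075 to 0.43 for the 5 above). In a fit of the 20 libraries without *tabri1-a.1bd*, added after seeing the data, 7 copies were called.

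**Figure D2:**
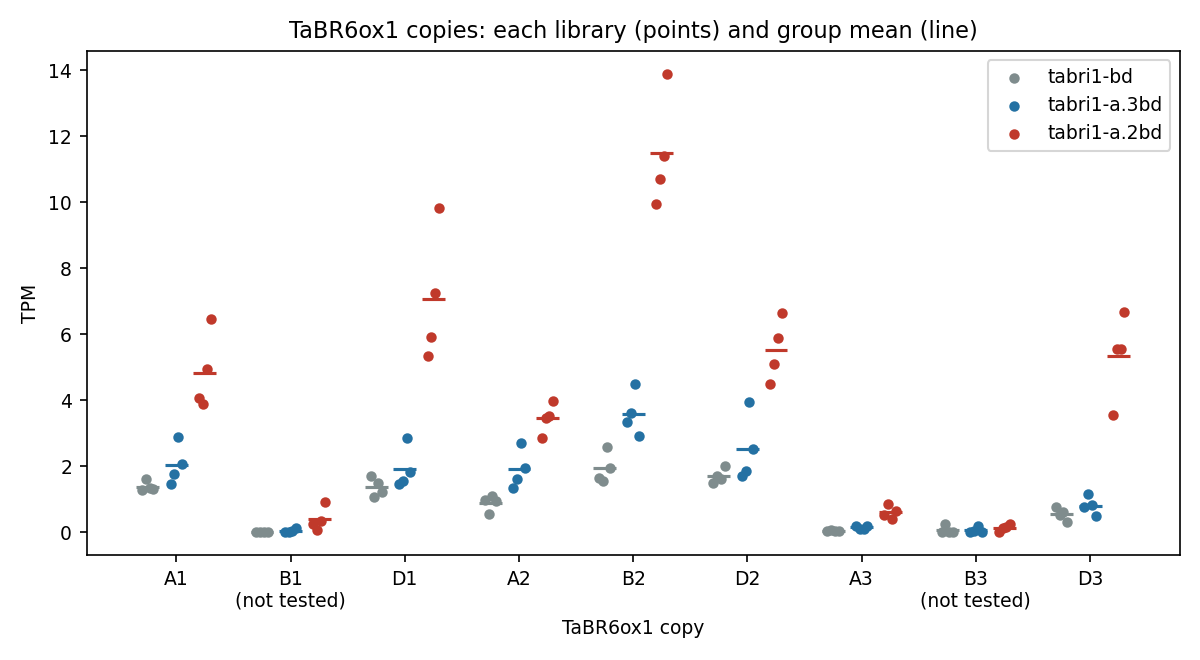
TPM (y axis) of the 9 *TaBR6ox1* copies (x axis) in each library of *tabri1-bd*, *tabri1-a.3bd* and *tabri1-a.2bd* (points, n = 4 each), with lines at the group means. For the called copies A1, D1, B2, D2 and D3, all *tabri1-a.2bd* libraries lie above all *tabri1-a.3bd* libraries, for example 9.96 to 13.9 TPM against 2.92 to 4.5 TPM for B2.

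The other BR synthesis genes were not called between the mutants. The log2 changes of the *TaCPD1* homoeologues, which encode a P450 enzyme of the pathway, were 0.11 to 0.22 (adjusted p = 0.61 to 0.71). *TaDWARF4-4B* (TraesCS4B03G0638000), which encodes the rate-limiting C-22 hydroxylase in Arabidopsis, had means of 4.05 ± 1.27 and 3.61 ± 0.88 TPM in *tabri1-a.2bd* and *tabri1-a.3bd* (SD, n = 4 each), a log2 change of 0.12 with a 95% interval of -0.41 to 0.65. The homoeologues on 4A and 4D changed by 0.05 and 0.20, and the 3 copies on group 3 chromosomes are listed at 0 throughout. The log2 changes were -0.26 to 0.11 for *TaDET2*, which encodes a steroid reductase, -0.42 to 0.16 for *TaD2* and -0.16 to 0.16 for *TaD11*. The 15 genes of sterol synthesis (*TaFACKEL1*, *TaHYD1*, *TaDWF7*, *TaDWF5* and *TaDWF1*), which supply the campesterol precursor, all passed the filter, and their log2 changes lay between -0.31 and 0.23 with none called (smallest adjusted p = 0.12).

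Among genes of the receptor complex, *TaBAK1-A2* (TraesCS2A03G0801300), a co-receptor kinase gene, was at 13.4, 11.9, 13.9 and 14.3 TPM in *tabri1-a.2bd* and at 17, 17, 19.6 and 19.1 TPM in *tabri1-a.3bd*. The genotypes did not overlap and the gene was called (log2 change -0.43 ± 0.10 SE, limma adjusted p = 0.047), but it was not called after leaving out any 1 of the 8 libraries. Its homoeologues *TaBAK1-B2* (TraesCS2B03G0887400; log2 change -0.40, adjusted p = 0.065) and *TaBAK1-D2* (TraesCS2D03G0741000; -0.34, adjusted p = 0.16) had values on the same side without passing the threshold. The other set of BAK1 genes had log2 changes of 0.55 (*TaBAK1-B1*) and 0.26 (*TaBAK1-D1*), not called, and *TaBAK1-A1* was below the filter. The *TaBKI1* genes, which encode the receptor's inhibitor, were low, with means of 1.25 to 3.6 TPM, and their log2 changes of -0.54 to -0.40 were not called. Of the 22 genes further down the signalling chain, 19 passed the filter and none was called. Their log2 changes were -0.36 to 0.46 for the BZR transcription factor genes, -0.28 to -0.20 for *TaBSK1*, -0.27 to -0.16 for *TaCDG1*, -0.17 to -0.05 for *TaBSU1* and -0.15 to 0.07 for *TaBIN2*. The smallest adjusted p was 0.11, for *TaBZR-A3*, and the 3 BZR genes on group 6 were below the filter. The study's list pairs *TaBZR-A2* with a 3B identifier (TraesCS3B03G0374100) and *TaBZR-B2* with a 3A identifier (TraesCS3A03G0309300), so the identifiers are given.

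Further genes were examined through functional lists of the study. These lists were drawn from genes it had called against *TaBRI1-NS* in these same libraries, and 9 of the 17 lists hold genes that it called in both dwarfs and did not call in the mild mutant. A difference between the substitution mutants is partly built into those 9 lists, so their counts describe the genes and are not independent evidence of a direction. Calls in *tabri1-a.1bd* are also partly built into them, because its libraries were used to draw them. The share of all genes tested that were called, to be read beside each count below, is 1.15% higher and 1.87% lower.

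Terpene synthase genes, whose products make volatile and defensive terpenoids and hormone precursors, were lower in *tabri1-a.2bd*. Of the 19 tested genes on this list (which was held only in part), 14 were called lower and 1 higher (1.87% and 1.15% of all genes tested), with a median log2 change of -1.30. The highest expressed of the named genes, TraesCS2D03G0008900, was at 15, 11.9, 12.6 and 7.87 TPM in *tabri1-a.2bd* and at 98.7, 87.3, 120 and 143 TPM in *tabri1-a.3bd*. All *tabri1-a.3bd* libraries were above all *tabri1-a.2bd* libraries (log2 change -3.20 ± 0.20 SE, adjusted p = 4.5e-05), and the *tabri1-bd* libraries, at 38.3 to 111 TPM, were also all above *tabri1-a.2bd*. TraesCS2D03G0046500 was at 2.12 to 5.18 TPM against 11.1 to 26.4 TPM, and TraesCS6A03G0151000 at 0 to 0.473 TPM against 1.46 to 5.39 TPM. TraesCS2B03G0063600, at 0 to 0.219 TPM against 3.27 to 6.39 TPM, lies in a 2B stretch described below. TraesCS6A03G0151000 and TraesCS2B03G0063600 passed the filter only through *tabri1-a.3bd*, as did TraesCS2D03G1194800, another of the genes called lower. The gene that was higher, TraesCS7B03G1281000, had means of 1.97 and 0.599 TPM and was called in 2 of the 8 fits that left out a library. It passed the filter only through *tabri1-a.2bd*. In *tabri1-a.1bd*, 18 of the 19 genes were called lower than in *tabri1-bd*, against 15.0% of all genes tested. Libraries of *tabri1-a.1bd* were also used to draw this list, so this count is a description.

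Acid phosphatase genes, which release phosphate from organic esters, were the list with the most genes called higher in *tabri1-a.2bd*. Of 19 tested genes, 9 were called higher and none lower, against 1.15% and 1.87% of all genes tested (median log2 change 1.09). When all 23 libraries shared 1 fit, 5 were called higher, against 1.03% of all genes. TraesCS4B03G0939900 was at 13.8, 10.8, 11 and 7.66 TPM in *tabri1-a.2bd* and at 0.168, 1.95, 1.45 and 0.379 TPM in *tabri1-a.3bd* (log2 change 3.10 ± 0.40 SE, limma adjusted p = 0.0038). This gene passed the filter only through *tabri1-a.2bd*. The neighbouring identifiers TraesCS4B03G0939700 and TraesCS4B03G0939600 were at 5.06 to 8.02 TPM against 0.136 to 1.94 TPM and at 27 to 40.3 TPM against 5.25 to 8.71 TPM. These are possible tandem copies, and reads may have been split between them. TraesCS5A03G1242700 was at 7.82 to 12 TPM against 0.965 to 2 TPM. The *tabri1-bd* means of these 4 genes were 0.787 to 4.3 TPM, below the *tabri1-a.2bd* means of 6.72 to 34.2 TPM.

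Beta-glucosidases, which cleave glucose from conjugates, included 3 genes called higher of 13 tested and none called lower. TraesCS2B03G1501600 was at 170, 158, 126 and 164 TPM in *tabri1-a.2bd* and at 36.5, 41.2, 42.5 and 34.5 TPM in *tabri1-a.3bd* (log2 change 1.98 ± 0.11 SE, adjusted p = 1.5e-05). TraesCS2B03G1500200 was at 35.6 to 62.5 TPM against 6.31 to 10.2 TPM, and TraesCS2D03G1268900 at 1.82 to 3.44 TPM against 0 to 0.247 TPM. TraesCS2D03G1268900 passed the filter only through *tabri1-a.2bd*. The other 10 genes spread to both sides of 0, and the median log2 change of the list was 0.32.

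The beta-fructofuranosidase list, enzymes that split sucrose and fructans, was divided. Of 10 tested genes, 4 were called lower and none higher, although 5 of the 10 log2 changes were above 0. Without *tabri1-a.2bd* replicate 2, 2 were called lower. TraesCS7D03G0020100 was at 107, 82.9, 126 and 75.4 TPM in *tabri1-a.2bd* and at 177, 258, 174 and 187 TPM in *tabri1-a.3bd* (log2 change -1.03 ± 0.18 SE, adjusted p = 0.017). TraesCS4A03G1224300, TraesCS4A03G1224500 and TraesCS7A03G0018600 had log2 changes of -1.23, -1.2 and -0.94. The *tabri1-bd* means of these 4 genes (62.2 to 245 TPM) were each above the *tabri1-a.3bd* means (56.7 to 199 TPM), and in *tabri1-a.1bd* no library exceeded 12.9 TPM for them. Over the list, 5 genes were called lower and 5 higher in *tabri1-a.1bd* than in *tabri1-bd*, against 15.0% and 18.0% of all genes tested. The 5 called higher were those with log2 changes above 0.

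Genes of the chlorophyllide a oxygenase list, an enzyme activity of chlorophyll b synthesis, included 3 called lower of 7, and 1 without *tabri1-a.3bd* replicate 3 or replicate 4. The change was largest in TraesCS4A03G1017200, at 4.68, 4.47, 4.74 and 3.45 TPM in *tabri1-a.2bd* against 33.1, 37, 38.4 and 36 TPM (log2 change -2.93 ± 0.11 SE, limma adjusted p = 1.1e-06). Its mean was 31.3 TPM in *tabri1-bd*, 34.8 TPM in *TaBRI1-NS*, 35.6 TPM in Cadenza and at least 47.6 TPM in each *tabri1-a.1bd* library, so that *tabri1-a.2bd* was the only genotype under 5 TPM. The genes TraesCS7B03G0101600 and TraesCS7D03G0307400 changed by -0.54 and -0.47, and the latter was not called after leaving out any 1 of the 8 libraries. All of these called genes were called in the opposite direction between *tabri1-a.1bd* and *tabri1-bd* (log2 changes 1.25 to 2.34). Among all genes tested, 18.0% were called higher in *tabri1-a.1bd*.

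Smaller changes were found on the other lists. In oligopeptide transport, 6 of 18 tested genes were called lower and none higher, led by TraesCS4B03G0881900 (log2 change -0.91), TraesCS5A03G1193900 (-0.81), TraesCS6D03G0816700 (-0.80) and TraesCS7D03G1067400 (-0.70). TraesCS7D03G1067400 was not called after leaving out any 1 of the 8 libraries. Only 3 of the oligopeptide transport genes were called without replicate 1 or 2 of either mutant. In the plastoglobule list, lipid particles of the chloroplast, 4 of 15 were called lower (-0.51 to -0.43) and TraesCS3D03G0046800 higher (0.51, called in 4 of the 8 fits that left out a library). Of 3 phosphoadenylyl-sulfate reductase genes, which act in sulfate assimilation, TraesCS2B03G0603800 and TraesCS2A03G0487300 were lower (-0.44 each), and neither was called without *tabri1-a.2bd* replicate 2 or *tabri1-a.3bd* replicate 4. The diacylglycerol kinase list held 1 lower gene of 7 (TraesCS2D03G1190300, -0.54), called in 2 of the 8 fits that left out a library.

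The lists that the study drew from genes called in all triple mutants against *TaBRI1-NS* held few calls. None of the tested genes was called in chloroplast thylakoid membrane (19 tested, median log2 change 0.00), NuA4 histone acetyltransferase (5), cohesin (4) or very-long-chain hydroxyacyl-CoA dehydratase (5). TraesCS4B03G0082800 was the 1 gene called of 15 in fatty acid biosynthesis (higher, 0.97), TraesCS3D03G0023400 the 1 of 4 in fatty acyl-CoA reductase, enzymes of wax alcohol synthesis (lower, -1.2), and TraesCS2B03G0080400 the 1 of 4 in flavonoid biosynthesis (lower, -0.92; in the 2B stretch). Leaving out most single libraries removed the fatty acid biosynthesis and fatty acyl-CoA reductase calls, and leaving out *tabri1-a.3bd* replicate 2 removed the flavonoid call. The 1 called gene of 25 in mitochondrial inner membrane, TraesCS6B03G0646900, belongs to the 6B region.

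**Figure D3:**
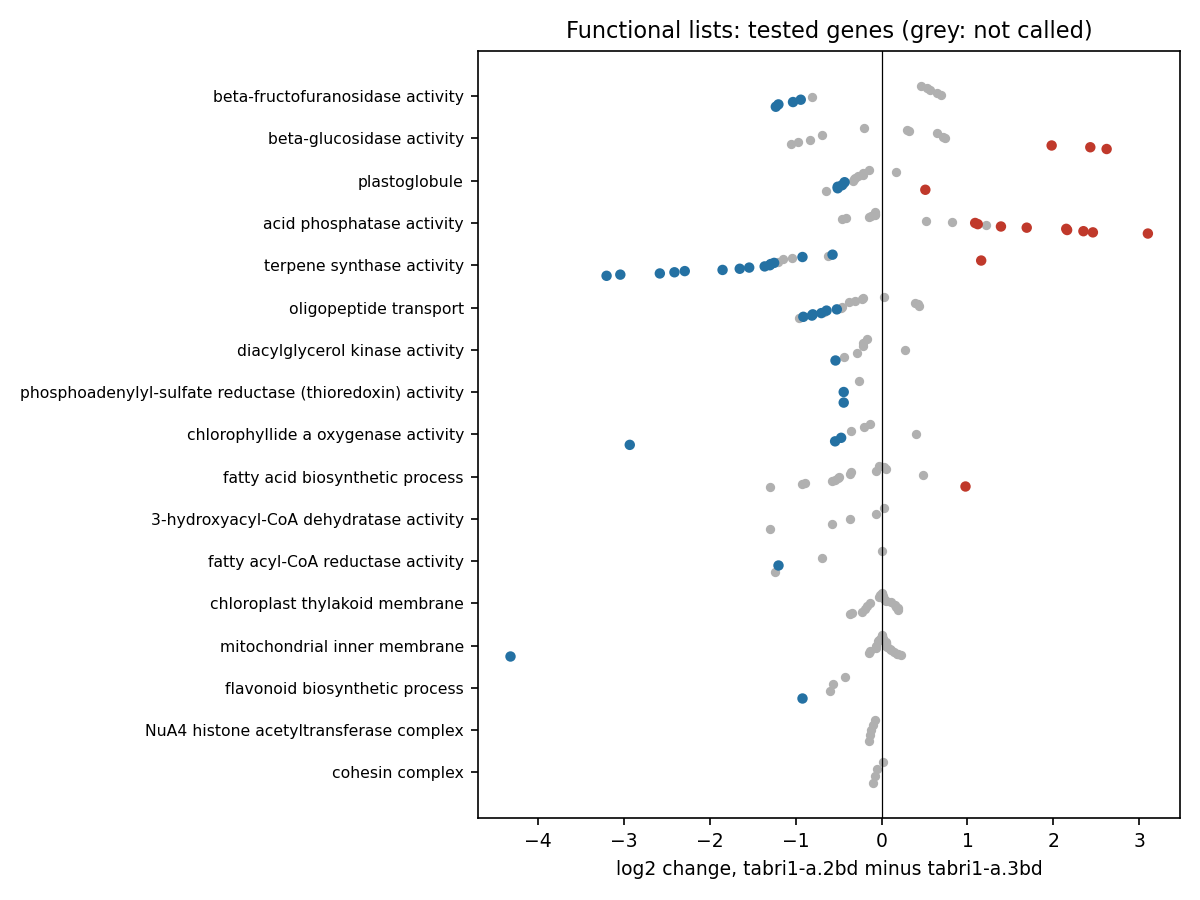
Log2 change between *tabri1-a.2bd* and *tabri1-a.3bd* (x axis) of each tested gene in 17 functional lists of the study (rows). Red and blue points are genes called higher and lower and grey points were not called; terpene synthase has 14 blue points and 1 red and acid phosphatase 9 red, and most points of the thylakoid and mitochondrial lists lie close to 0.

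Outside the 6B region, the leading DEGs by size among high-confidence genes with no overlap of libraries are on none of these lists. TraesCS1D03G0052800 was at 21.7, 23.6, 15.8 and 25.3 TPM in *tabri1-a.2bd* and at 0.249, 0.792, 2.09 and 0.622 TPM in *tabri1-a.3bd* (log2 change 4.07 ± 0.34 SE, adjusted p = 0.00026). TraesCS1B03G0501800 was at 566, 333, 274 and 390 TPM in *tabri1-a.2bd* and at 26, 15.2, 43.9 and 24.8 TPM in *tabri1-a.3bd* (3.85 ± 0.31 SE, adjusted p = 0.00021), and reached 388, 2612 and 3257 TPM in *tabri1-a.1bd* against 1.16 to 18.2 TPM in *tabri1-bd*. The means of TraesCS1B03G0501800 were thus highest in the severe dwarf, then the moderate dwarf, then the mild mutant. TraesCS1D03G0052800 did not follow this order. It was at 0, 5.21 and 21.1 TPM in *tabri1-a.1bd*, where its mean of 8.76 TPM was below the *tabri1-a.2bd* mean of 21.6 TPM. It was not called between *tabri1-a.1bd* and *tabri1-bd* (limma adjusted p = 0.24).

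The largest falls were in TraesCS6B03G0723400, at 1.1, 1.33, 1.66 and 7.63 TPM in *tabri1-a.2bd* and at 193, 150, 53.9 and 145 TPM in *tabri1-a.3bd* (-5.53 ± 0.54 SE, adjusted p = 0.00076), and in TraesCS6A03G0594500, at 0.594, 1.19, 0.397 and 3.7 TPM against 103, 85.9, 28.3 and 89.6 TPM (-5.42 ± 0.53 SE, adjusted p = 0.00073). Both varied widely among libraries of a genotype. For TraesCS6B03G0723400 the *tabri1-bd* libraries were at 14.7 to 92.4 TPM, those of *TaBRI1-NS* at 7.18 to 162 TPM, and those of Cadenza at 0.24 to 0.464 TPM. For TraesCS6A03G0594500 the *tabri1-bd* libraries were at 8.4 to 39.2 TPM, those of *TaBRI1-NS* at 3.62 to 79.8 TPM, and those of Cadenza at 0 to 0.286 TPM. The *tabri1-a.1bd* means of these genes were 4.18 and 4.0 TPM.

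In the 6B region (TraesCS6B03G0627800LC to TraesCS6B03G0706700 in the numbering of the identifiers), 109 of the 189 tested genes were called (57.7%), 108 lower and 1 higher in *tabri1-a.2bd*. The lower genes fell into 2 blocks. The first ran from TraesCS6B03G0627800LC to TraesCS6B03G0647800LC, where 50 of the 51 genes that averaged 1 TPM or more in *tabri1-a.3bd* had at most 5% of that average in each *tabri1-a.2bd* library. The second ran from TraesCS6B03G0680800 to TraesCS6B03G0706700, with 45 of 52. Genes near 0 in *tabri1-a.2bd* could pass the filter through *tabri1-a.3bd* alone, so the counts of the region are a description. The blocks were drawn as runs of genes near 0 by this measure, so their counts and the interval between them partly follow from the drawing. Between the blocks, none of 65 genes was near 0, and their log2 changes ranged from -0.91 to 1.2 around a median of 0.05. The 1 gene called higher, TraesCS6B03G0671000LC, lies in this interval, at 44.9, 49.3, 42.1 and 54.8 TPM in *tabri1-a.2bd* against 30.7, 27.7, 25.8 and 35.5 TPM (log2 change 0.67 ± 0.12 SE, limma adjusted p = 0.018). Of the 60342 tested genes that averaged 1 TPM or more in *tabri1-a.3bd*, 138 were near 0 by the same measure. They comprised 95 of the 168 such genes in the region and 43 genes outside it.

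The summed TPM of the block genes was 50.3, 53.3, 51.4 and 54 in *tabri1-a.2bd*, and it was 1145, 1210, 1210 and 1181 in *tabri1-a.3bd*. *tabri1-bd* was at 1032 to 1140 TPM and Cadenza at 1170 to 1201 TPM, close to *tabri1-a.3bd*, whereas *TaBRI1-NS* was at 541 to 686 TPM. *tabri1-a.1bd* was at 46.9 to 56.9 TPM, so that both dwarf genotypes were low. TraesCS6B03G0694200, the high-confidence gene of the region with the highest *tabri1-a.3bd* mean, was at 0.127, 0.0833, 0 and 0 TPM in *tabri1-a.2bd* and at 125, 121, 119 and 116 TPM in *tabri1-a.3bd*. TraesCS6B03G0704900, the next highest, was at 41.4, 46.4, 42.9 and 41.3 TPM against 103, 95, 101 and 96.1 TPM. TraesCS6B03G0637300, named after its values were seen, had 0 reads in all *tabri1-a.2bd* libraries and 6585 reads in *tabri1-a.3bd*, at least 2330-fold lower when 3 reads over the group are taken as the floor. The TaBRI1 genes lie on group 3 chromosomes, and whether DNA is missing from 6B was not tested.

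**Figure D4:**
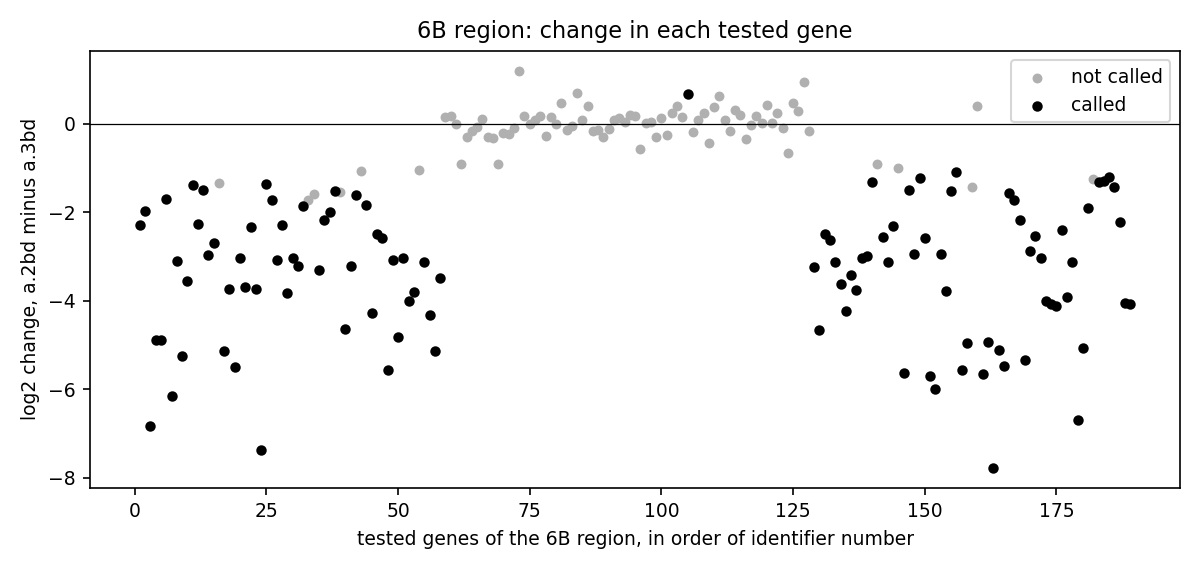
Log2 change between *tabri1-a.2bd* and *tabri1-a.3bd* (y axis) of the 189 tested genes of the 6B region in the order of their identifier numbers (x axis). The called genes (black) form a block at each end, with changes down to -7.78, and the interval between them lies around 0 with 1 called gene.

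A second cluster of DEGs was noticed on 2B after the values were seen. Between TraesCS2B03G0054400 and TraesCS2B03G0086800LC, 34 of 72 tested genes were called (47.2%, compared with 3.77% on 2B as a whole and 2.87% of all genes outside the 6B region), 21 higher and 13 lower in *tabri1-a.2bd*. Both end genes are themselves called, so the bounds follow the calls and the rate is a description. Of the called genes, 11 were below 0.1 TPM in every *tabri1-a.3bd* library while their means were 0.761 to 9.77 TPM in *tabri1-a.2bd* and 2.47 to 13.2 TPM in Cadenza. These 11 genes passed the filter only through *tabri1-a.2bd*, so they could enter the count in 1 direction only. Their means did not exceed 0.0902 TPM in *tabri1-bd* or 0.0936 TPM in *TaBRI1-NS*. Further called genes of the stretch also passed the filter through 1 mutant alone. Examples are TraesCS2B03G0062900, TraesCS2B03G0072100 and TraesCS2B03G0073700 through *tabri1-a.2bd*, and TraesCS2B03G0063600 and TraesCS2B03G0086800LC through *tabri1-a.3bd*. The counts higher and lower are therefore a description. Of the 33 genes here whose Cadenza and *TaBRI1-NS* means differed by more than 2-fold, the *tabri1-a.2bd* mean was nearer to Cadenza for 27, the *tabri1-a.3bd* mean for 1, and the *tabri1-bd* mean for 0. The stretch holds a flavonoid gene and 2 terpene synthase genes of the lists above (TraesCS2B03G0063600, and TraesCS2B03G0066500, which was not called, with a log2 change of -1.04 and adjusted p = 0.068) but none of the *TaBR6ox1* copies. The 2B copies (TraesCS2B03G0038000, TraesCS2B03G0038200 and TraesCS2B03G0038400) come before its start in the numbering of the identifiers. Whether they belong to the same segment was not tested. The part of either chromosome segment in the other DEGs was not tested, and 2079 DEGs lie outside both.

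The DEGs outside the 6B region were then followed in libraries that had no part in calling them. Of the 844 genes higher in *tabri1-a.2bd*, 287 (34.0%) were also called higher in *tabri1-a.1bd* than in *tabri1-bd* and 59 (6.99%) lower, compared with 18.0% and 15.0% of all genes tested. Of the 1269 genes lower in *tabri1-a.2bd*, 650 (51.2%) were called lower in *tabri1-a.1bd* and 139 (11%) higher. Together, 937 DEGs of the substitution mutants were called in the same direction and 198 in the opposite direction. Without *tabri1-a.1bd* replicate 1, these were 1242 and 235, but more of all genes tested were then called as well (22.8% higher and 17.9% lower). In that fit 488 (57.8%) of the higher DEGs were called higher in *tabri1-a.1bd*, and 754 (59.4%) of the lower DEGs were called lower. All genes tested are given for reference and were not matched to the DEGs in expression level.

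*tabri1-bd* also had no part in the calls. The *tabri1-bd* mean was nearer to *tabri1-a.3bd* than to *tabri1-a.2bd* for 84.1% of the higher and 82.0% of the lower DEGs, and for 55.8% of all genes tested. Relative to *tabri1-bd*, the median log2 difference of the higher DEGs was 0.91 for *tabri1-a.2bd* but -0.03 for *tabri1-a.3bd*, and that of the lower DEGs -0.71 and 0.1. The DEGs were selected on the values of these mutants, so these medians are a description. In *TaBRI1-NS* and Cadenza, the medians were between -0.02 and 0.05.

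**Figure D5:**
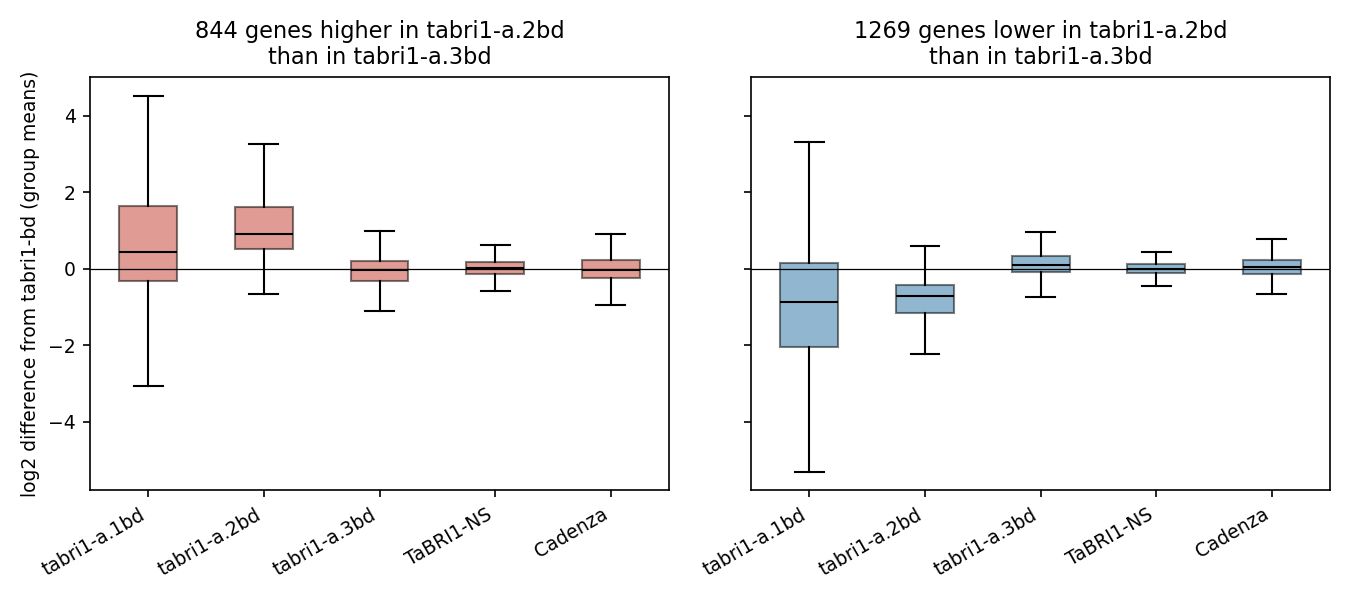
Log2 difference of group means from *tabri1-bd* (y axis) in 5 genotypes (x axis), for the 844 genes higher (left) and the 1269 genes lower (right) in *tabri1-a.2bd* than in *tabri1-a.3bd*. Boxes span the quartiles with a line at the median and whiskers reach the last gene within 1.5 box lengths; the medians of *tabri1-a.2bd* are 0.91 and -0.71 and those of *tabri1-a.1bd* are 0.45 and -0.85, and those of *tabri1-a.3bd*, *TaBRI1-NS* and Cadenza lie near 0.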

How the data were processed

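RNA-seq was analysed from above-ground seedling tissue of *tabri1-a.2bd* and *tabri1-a.3bd* (4 libraries each), with the other 15 libraries as reference; groups and replicate numbers follow the deposited labels. The authors' steps were trimming (Trimmomatic 0.39), alignment to IWGSC RefSeq v2.1 (STAR 2.7.8a) and counting per gene (HTSeq 0.11.3), and they deposited TPM per library. HTSeq options and gene lengths are not given in the sources used here, so reads shared by homoeologues or paralogues may be split or lost.

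From the TPM, log2(TPM + 0.5) of genes with at least 0.5 TPM in at least 3 of the 8 libraries was fitted with limma 3.58.1 in R 4.3.3 (lmFit, eBayes with trend and robust; statmod 1.5.0), without a block. Log2 changes are *tabri1-a.2bd* minus *tabri1-a.3bd*, on this scale, which understates changes of low genes. The threshold was a Benjamini-Hochberg adjusted p of 0.05. No fold threshold was applied. *tabri1-a.1bd* and *tabri1-bd* were fitted alone in the same way. The *TaBRI1-A* share was tested by exact permutation over 70 splits.

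As 1 read adds a fixed amount to the TPM of its gene within a library, reads were recovered for 100% of 94749 genes above 0 in at least 8 libraries (tolerance 0.004 of a read) and for 99.87% of the genes tested; on simulated data 93059 of 93064 genes came out right. Depth covers counting error only, since reads are not molecules. On simulated data for the comparison of *tabri1-a.2bd* with *tabri1-a.3bd* (71650 genes), limma called 37 of 100 genes changed 2-fold, 88 of 98 changed 4-fold and 7 unchanged genes. The simulation changed fewer genes than were called in the data, and drew them only from genes above a minimum mean read count. These rates may therefore not hold for the data. Libraries of a group differed beyond counting noise. Whether seedling pools of a genotype came from separate sowings is not stated, so p-values measure the spread between these pools.

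Named were all genes of the study's BR list, the 2 largest rises and falls outside the 6B region among high-confidence genes without overlap, the 2 highest genes and any called higher in the 6B region (41 tested genes there did not have a lower mean and are otherwise not listed), and up to 4 called genes per functional list. The members and lists were chosen with earlier results of these data known. Functional lists were matched from older identifiers through the expression table (1 of 21 terpene synthase identifiers was unmatched; the full list has 26). The RefSeq gene table matched 0 identifiers, and no sequences were analysed here. Alternatives were other pseudocounts, filters, scalings, weights, a replicate block, joint fits, voom on recovered reads and leaving out libraries. Python 3.11.15, numpy 2.4.6, pandas 2.3.3 and matplotlib 3.10.9 were used.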

Additional observations from a re-analysis of the deposited data

Results flagged for a closer look

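Among the 50 genes whose values per library were examined, 99 groups of 4 libraries were checked for a library set far from its other replicates, and 7 stood out, where chance alone flags about 1 in 20 groups. In *tabri1-a.2bd*, TraesCS6B03G0723400 was at 7.63 TPM in replicate 4 and at 1.1 to 1.66 TPM in the others. The beta-fructofuranosidase gene TraesCS4A03G1224300 was at 33.7 TPM in replicate 3 and at 19.8 to 22 TPM in the others. The oligopeptide transport gene TraesCS5A03G1193900 was at 9.24 TPM in replicate 1 and at 6.39 to 6.7 TPM in the others. In *tabri1-a.3bd* replicate 2, the beta-fructofuranosidase genes TraesCS4A03G1224500 and TraesCS7D03G0020100 were at 142 and 258 TPM, with the other replicates at 93.9 to 102 and 174 to 187 TPM, and the beta-glucosidase gene TraesCS2D03G1268900 was at 0.247 TPM, with the others at 0 to 0.023 TPM. The oligopeptide transport gene TraesCS4B03G0881900 was at 7.09 TPM in *tabri1-a.3bd* replicate 3 and at 9.52 to 9.67 TPM in the others. None of these libraries overlapped the other genotype in the gene concerned.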

How the results depend on the processing

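The 2222 DEGs became 1041 with the replicate number as a replicate block (958 of them shared with the 2222), 3635 with limma voom on the recovered reads, 1041 with a change of more than 2-fold as well, and 5274 in the fit of 20 libraries without *tabri1-a.1bd*, added after seeing the data. Leaving out 1 library gave 1258 to 1730. Libraries of the same number did not deviate together (r = -0.0176 to 0.0446 between *tabri1-a.2bd* and *tabri1-a.3bd*), so the numbers pair nothing, and only replicate 4 correlated best with its own number. The other settings for the DEGs, including no filter (1535) and high-confidence models only (2357), stayed within 1.5 times. The 6 BR pathway genes became 3 with no filter, 1 in the fit of all 23 libraries, 10 in the fit of 20 libraries, 4 with the replicate block and 3 to 6 when 1 library was left out. The 937 DEGs called in the same direction in *tabri1-a.1bd* became 692 with the replicate block, 1262 with array weights and 810 to 1242 when 1 library was left out. The difference in *TaBRI1-A* share of -0.94 percentage points (p = 0.63) ranged from -2.06 to 0.279 when 1 library was left out, the latter without *tabri1-a.2bd* replicate 2 (exact permutation p = 0.77), and the replicate block left it at -0.94. Rescaling by size factors moved the share of DEGs that were higher from 38% to 42.7%. In the 47 called genes named, no log2 change reversed under any setting run, and with a library left out 297 gene results passed the threshold and 79 did not. With the replicate block, 1 beta-fructofuranosidase and 1 oligopeptide transport gene were called lower. The cause of these differences was not tested. With 4 libraries each, changes near 2-fold were often missed in the simulation, so genes not called may still differ.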
